A study of Rattus norvegicus with 13 samples.

Results

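Mesothelin (Msln), the transmembrane mucins Muc1, Muc13 and Muc4, and 6 further genes of secretory epithelial surfaces (Pigr, Lgals4, Lypd8, Lcn2, Tspan8 and Mal2) were followed across a rat model of intrahepatic cholangiocarcinoma, the cancer of the bile ducts inside the liver. The 10 genes were chosen by name as 1 functional group, without a threshold on any measured value, and all 10 were on the array, out of 14217 genes measured. Expression was read on 13 Affymetrix arrays of total RNA from the Fischer 344 rat strain. The tissue group held 4 tumours of young adult male rats that had arisen from BDEsp cells, a spontaneously transformed line of rat bile duct epithelium. From such tumours came an epithelial cancer line (clone H10, 3 arrays) and a fibroblastic line positive for α-smooth muscle actin (clone E4, 4 arrays), each grown alone in a gel of rat tail type I collagen. A further array was labelled as the epithelial cells after co-culture with the fibroblastic cells, and another as the fibroblastic cells after co-culture with the epithelial cells. Each line was a single clone, the fibroblast plating density in the co-cultures varied, and the labels do not say which density an array came from. The labels do not say that replicate arrays came from separate cultures, and the p-values then speak only of differences among the arrays at hand.

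The apical surface of a duct or gut epithelium is covered by glycoproteins that protect the cell and hold water. Transmembrane mucins carry dense O-linked sugar chains above the membrane, galectins bind such sugars, and lipid-anchored proteins, tetraspanins and MAL proteins organise the membrane beneath and the vesicles that travel to it. Cholangiocytes, the cells that line bile ducts, use this apparatus to modify bile and to carry immunoglobulin A into it, and several of its parts are used as markers of adenocarcinoma. Mesothelin is a lipid-anchored glycoprotein of the lining of body cavities that binds the mucin Muc16. Muc16 itself was not analysed here.

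The sequences just upstream of the transcription start are shown for 4 of the genes, the 3 whose level differed most among the cultures that hold epithelial cells (Muc13, Lypd8 and Lgals4) and 1 that was highest where both lines grew together (Lcn2). They are RefSeq sequences of rat build GRCr8, 250 bases that end at the base before the start, printed 5′ to 3′ on the strand of the gene. RefSeq promoters were found for 8 of the 10 genes. Muc13 lies on the minus strand at chr11:80485407-80485656, Lypd8 on the plus strand at chr10:43062011-43062260, Lgals4 on the plus strand at chr1:93252035-93252284 and Lcn2 on the minus strand at chr3:36081781-36082030. Capitals mark matches, on either strand, to any of 11 short motifs.
Muc13: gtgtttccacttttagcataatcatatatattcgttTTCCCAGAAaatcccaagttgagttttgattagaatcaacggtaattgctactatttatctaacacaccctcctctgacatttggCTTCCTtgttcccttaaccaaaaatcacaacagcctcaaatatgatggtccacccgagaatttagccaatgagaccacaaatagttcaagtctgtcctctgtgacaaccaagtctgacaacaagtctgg
Lypd8: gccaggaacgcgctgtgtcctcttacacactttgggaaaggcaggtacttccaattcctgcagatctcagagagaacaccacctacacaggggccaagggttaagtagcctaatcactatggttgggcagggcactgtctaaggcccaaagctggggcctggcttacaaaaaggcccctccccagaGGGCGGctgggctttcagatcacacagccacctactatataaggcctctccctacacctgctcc
Lgals4: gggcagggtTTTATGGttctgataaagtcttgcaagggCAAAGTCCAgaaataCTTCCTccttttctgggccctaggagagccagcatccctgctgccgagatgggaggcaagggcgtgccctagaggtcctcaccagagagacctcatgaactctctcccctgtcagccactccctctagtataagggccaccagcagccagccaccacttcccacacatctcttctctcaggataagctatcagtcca
Lcn2: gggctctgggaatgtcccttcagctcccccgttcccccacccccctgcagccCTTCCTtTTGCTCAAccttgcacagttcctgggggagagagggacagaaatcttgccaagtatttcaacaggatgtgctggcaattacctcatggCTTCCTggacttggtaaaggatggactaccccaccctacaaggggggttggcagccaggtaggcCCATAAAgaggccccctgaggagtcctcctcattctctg

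The letters searched were TATAAA for the TATA box, TTTATNG for CDX, GTTAAT for HNF1, CAAAGTCCA for HNF4, TGANTCA for AP-1, AACNNGTT for grainyhead, AGGAAG for ETS, TTGCNNAA for C/EBP, TTCNNNGAA for STAT and GGGCGG for SP1, besides a longer NF-kB motif, and no matches overlapped in these sequences. The Lgals4 promoter held a CDX match starting 241 bases before the start, an HNF4 match at 212 bases and an ETS match at 197 bases. The HNF4 letters occur in 0.338% of 33469 rat promoters of this length, the CDX letters in 10.1% and the ETS letters in 29.5%. The Lcn2 promoter held ETS matches 198 and 103 bases before the start, a C/EBP match at 191 bases (letters found in 9.22% of promoters) and a CDX match at 39 bases. Muc13 had a STAT match at 214 bases (7.67% of promoters) and an ETS match at 129 bases, and Lypd8 a single SP1 match at 64 bases (30.5% of promoters). Among the other genes with a promoter, Muc1 held a TATA box (12.9% of promoters), a grainyhead match (3.60%) and an SP1 match, and Muc4 held a STAT match. The HNF1, AP-1 and NF-kB letters, present in 6.45%, 6.34% and 1.30% of all promoters, were in none of the 8 sequences. These are letter matches in a short window and do not show binding.

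All values below are log2 expression levels as deposited, so a difference of 1 is a doubling, and levels are compared within a gene only. Array medians lay between 6.15 and 6.25. The epithelial line carried its own markers (mean of 8 biliary and epithelial markers 12.24 to 12.76, against 4.52 to 5.11 in the fibroblastic line), and the fibroblastic line its own (mean of 10 myofibroblast markers 10.85 to 11.12, against 5.13 to 5.28). Both co-culture arrays held the markers of both lines. Keratin 19 (Krt19) was 13.49 in the array labelled epithelial co-culture and 13.21 in the array labelled fibroblastic co-culture, and type I collagen Col1a2 was 13.37 and 13.60. The myofibroblast mean was 8.98 and 9.37 and the biliary mean 11.83 and 11.77. In a direct comparison of the 2 arrays, added after seeing these values, limma called 1 of 14217 genes (199 had an unadjusted p under 0.05). Each is therefore named by its label and set against both lines. The tumours were mixed tissue, with a hepatocyte marker mean of 12.59, 5.33, 11.03 and 12.77 in tumours 1 to 4 and with myofibroblast markers at 10.82 to 11.19. In such bulk samples, fewer cells of a type and less RNA per cell cannot be told apart.

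**Figure D1:**
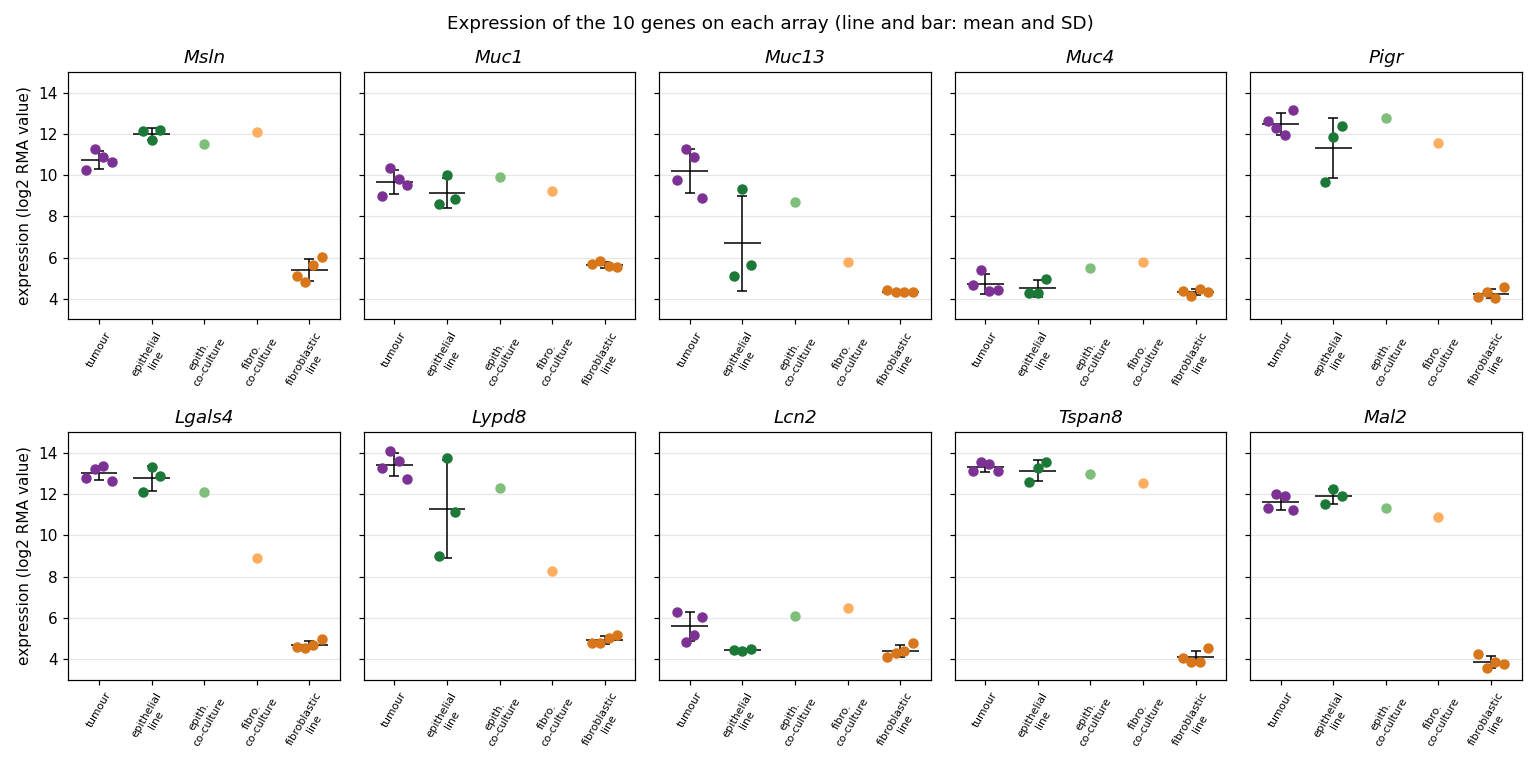
Log2 expression (vertical axis) of the 10 genes, 1 panel per gene, in the tumours, the epithelial and fibroblastic lines grown alone and the 2 co-culture arrays; each point is an array, and lines and bars give the mean and SD of a replicated group. All of the genes except Muc4 and Lcn2 separate the fibroblastic line from all other arrays, whereas Muc4 and Lcn2 are low in both lines grown alone.

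Mesothelin was at a high level in every array except those of the fibroblastic line alone. Its levels were 12.14, 11.68 and 12.17 in the 3 epithelial arrays, 10.23, 11.25, 10.85 and 10.61 in the 4 tumours, 5.09, 4.84, 5.64 and 6.03 in the 4 fibroblastic arrays, 11.49 in the array labelled epithelial co-culture and 12.10 in the array labelled fibroblastic co-culture. All epithelial arrays were above all tumours, and all tumours above all fibroblastic arrays. The epithelial line exceeded the fibroblastic line by 6.60 (SE 0.30, limma adjusted p = 1.47e-06), and the tumours lay below the epithelial line by a difference of -1.26 (SE 0.31, adjusted p = 0.00618). This was the only one of the 10 genes called lower in tumours. For markers of mesothelium, a tissue in which Msln is known to be made, the mean of 9 was 5.22 to 5.78 in tumours. The epithelial arrays had 4.76 to 4.90 and the fibroblastic arrays 4.96 to 5.12. Among them, Wt1 (1.74), Podxl (0.95), Efemp1 (0.83), Krt5 (0.71) and Calb2 (0.61) were called higher in tumours than in the epithelial line. With arrays centred on their medians, 5 of the 9 were called higher there and 0 lower. Wt1 differed by -2.36 between the epithelial and fibroblastic lines. The part of mesothelial cells in the Msln level was not tested.

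Muc1, a mucin of most glandular surfaces, showed the same division between lines without a difference between tumours and the epithelial line that passed the test. It measured 8.60, 9.98 and 8.85 in the epithelial line, 8.97, 10.34, 9.81 and 9.53 in the tumours and 5.68, 5.85, 5.58 and 5.52 in the fibroblastic line, with 9.92 in the array labelled epithelial co-culture and 9.24 in the array labelled fibroblastic co-culture. Tumour and epithelial arrays overlapped, and the fibroblastic arrays were all lower. The difference was 3.49 between the lines (SE 0.31, adjusted p = 7.40e-05) and 0.52 between tumours and the epithelial line (95% interval -0.26 to 1.30, adjusted p = 0.238). Without epithelial array 2, the highest of its group, the tumours exceeded the epithelial line by 0.94 (adjusted p = 0.0324).

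Muc13, a transmembrane mucin best known from the intestine, was called higher in tumours than in the epithelial line, unlike Muc1 and Muc4, although the arrays overlapped. Its levels were 9.75, 11.26, 10.87 and 8.88 in the tumours but 5.13, 9.32 and 5.62 in the epithelial line, 4.41, 4.31, 4.34 and 4.35 in the fibroblastic line, 8.67 in the array labelled epithelial co-culture and 5.80 in the array labelled fibroblastic co-culture. Epithelial array 2 reached the range of the tumours, and the other epithelial arrays lay much nearer to the fibroblastic arrays. Tumours exceeded the epithelial line by 3.50 (SE 0.88, adjusted p = 0.00747), and by 4.81 with epithelial array 2 left out. The difference of 2.34 between the lines did not pass the test (SE 0.89, adjusted p = 0.0719), although no epithelial array was as low as a fibroblastic one, and without epithelial array 2 it was 1.03 (adjusted p = 0.00609), without epithelial array 1 it was 3.12 (adjusted p = 0.0356).

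Muc4, the large mucin that binds the receptor ErbB2, was low on nearly all arrays. It measured 4.68, 5.39, 4.36 and 4.44 in the tumours, 4.27, 4.27 and 4.97 in the epithelial line and 4.40, 4.14, 4.47 and 4.34 in the fibroblastic line, and its highest values were 5.48 and 5.77, in the arrays labelled epithelial and fibroblastic co-culture. Its mean over the 13 arrays exceeded that of only 11.1% of genes. None of the comparisons among tumours and lines passed the test for Muc4 (epithelial against fibroblastic 0.17, tumours against epithelial 0.21, tumours against fibroblastic 0.38, with adjusted p = 0.565, 0.506 and 0.185). Muc13 and Muc4 lie on chromosome 11 with 14 protein-coding genes between them, and their levels correlated weakly over the 13 arrays (Pearson r = 0.257, a description across arrays that differ in cell make-up).

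Pigr, the receptor that carries polymeric immunoglobulin A across epithelia into bile, was among the genes with the widest gap between the lines. It read 9.66, 11.85 and 12.40 in the epithelial line, 12.60, 12.26, 11.93 and 13.16 in the tumours, 4.09, 4.32, 4.05 and 4.57 in the fibroblastic line, 12.75 in the array labelled epithelial co-culture and 11.55 in the array labelled fibroblastic co-culture. Epithelial array 1 was the low one of its group, array 2 lay just below the lowest tumour and array 3 within the tumour range. The lines differed by 7.04 (SE 0.58, adjusted p = 4.40e-05). The tumours' difference of 1.19 from the epithelial line did not pass the test (adjusted p = 0.0885), but reached 1.74 without epithelial array 3 (adjusted p = 0.0223).

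Lcn2, the secreted lipocalin that withholds iron-loaded siderophores from bacteria and rises in inflammation, was low in both lines. It was 4.43, 4.39 and 4.49 in the epithelial line and 4.12, 4.29, 4.37 and 4.79 in the fibroblastic line, but 6.29, 4.83, 5.16 and 6.04 in the tumours, 6.11 in the array labelled epithelial co-culture and 6.47 in the array labelled fibroblastic co-culture. Every tumour and both co-culture arrays were above every array of either line, although the mean of Lcn2 over the 13 arrays exceeded that of only 16.5% of genes. Tumours exceeded the epithelial line by 1.15 (SE 0.32, adjusted p = 0.0122) and the fibroblastic line by 1.19 (SE 0.30, adjusted p = 0.00532), while the lines differed by 0.04 (adjusted p = 0.868). With tumour 2 as the only tumour, the difference from the epithelial line was 0.39 (adjusted p = 0.360) and from the fibroblastic line 0.44 (adjusted p = 0.250). Lcn2 is also made by neutrophils and hepatocytes. The mean of 6 neutrophil markers was 7.14, 7.01, 6.50 and 7.07 in tumours 1 to 4, while the epithelial arrays had 4.84 to 5.61 and the fibroblastic arrays 4.26 to 4.46, and the hepatocyte mean was lowest in tumour 2, where Lcn2 was lowest too; their part in the Lcn2 level was not tested.

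Lgals4, a galectin of gut epithelium that helps to carry glycoproteins to the apical membrane, was high in the tumours and the epithelial line, whose arrays overlapped. It measured 12.78, 13.23, 13.35 and 12.65 in the tumours, 12.08, 13.31 and 12.88 in the epithelial line, 4.60, 4.53, 4.67 and 4.97 in the fibroblastic line, 12.10 in the array labelled epithelial co-culture and 8.91 in the array labelled fibroblastic co-culture. The last of these stood between the lines, away from all other arrays. The lines differed by 8.06 (SE 0.28, adjusted p = 3.98e-07), and tumours and the epithelial line by 0.25 (95% interval -0.37 to 0.86, adjusted p = 0.478).

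Lypd8, a lipid-anchored Ly6/uPAR protein that keeps bacteria away from the colonic epithelium, varied most within the epithelial line. Its 3 epithelial arrays read 8.99, 13.75 and 11.11, against 13.24, 14.08, 13.62 and 12.74 in the tumours, 4.77, 4.77, 5.00 and 5.18 in the fibroblastic line, 12.30 in the array labelled epithelial co-culture and 8.27 in the array labelled fibroblastic co-culture. Epithelial array 2 lay among the tumours and arrays 1 and 3 below them. The lines differed by 6.36 (SE 0.93, adjusted p = 0.00115). Tumours exceeded the epithelial line by 2.14 (SE 0.83, adjusted p = 0.0513), short of the threshold, and by 3.37 without epithelial array 2 (adjusted p = 0.000993).

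Tspan8, a tetraspanin of the cell surface and of exosomes in several carcinomas, was high in the epithelial arrays and the tumours. Its levels were 13.11, 13.56, 13.47 and 13.12 in the tumours, 12.57, 13.25 and 13.55 in the epithelial line, 4.05, 3.85, 3.88 and 4.53 in the fibroblastic line, 12.97 in the array labelled epithelial co-culture and 12.55 in the array labelled fibroblastic co-culture. Only the fibroblastic arrays were low, and the epithelial arrays spanned 0.98, more than in 88.5% of genes. The lines differed by 9.05 (SE 0.27, adjusted p = 1.93e-07), the widest gap among the 10 genes, and the tumours differed from the epithelial line by 0.19 (95% interval -0.36 to 0.74, adjusted p = 0.548).

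Mal2, a membrane protein required for transcytosis to the apical side of hepatocytes and other epithelia, followed the same division. It read 11.34, 11.99, 11.92 and 11.24 in the tumours, 11.53, 12.24 and 11.90 in the epithelial line, 4.25, 3.58, 3.84 and 3.76 in the fibroblastic line, 11.30 in the array labelled epithelial co-culture and 10.89 in the array labelled fibroblastic co-culture. It was the only gene of the 10 with more than 1 probe set. The lines differed by 8.03 on the brighter one, whose levels these are (SE 0.22, adjusted p = 1.57e-07), and by 3.88 on the dimmer one (adjusted p = 0.000181). The 2 disagreed on the tumours: the brighter one gave tumours minus epithelial line -0.27 (adjusted p = 0.380), the dimmer one 2.20 (adjusted p = 0.00105). The dimmer probe set read 10.23, 11.19, 10.92 and 10.42 in the tumours and 7.67, 8.41 and 9.40 in the epithelial line, with no overlap. A direction for Mal2 between tumours and the epithelial line was therefore not settled.

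Across the group, 7 of the 10 genes were called higher and 0 lower in the epithelial than in the fibroblastic line, where limma called 20.9% of all genes higher and 16.6% lower. Muc13, Muc4 and Lcn2 were the 3 not called. All epithelial arrays were above all fibroblastic arrays for 8 genes, against 26.0% of all genes. The median difference was 6.48 over the 10 genes and 0.11 over all genes. The actin 3′ minus 5′ probe difference, a measure of RNA quality, was 1.05 to 2.65 in the fibroblastic arrays and 0.86 to 1.47 in the epithelial arrays, and with the 2 widest fibroblastic arrays (2 and 4) left out the count was again 7. In the tumours the same measure was 0.61 to 0.75, below every array of both lines. Its part in the comparisons with tumours was not tested.

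Between tumours and the epithelial line the group was divided. Muc13 and Lcn2 were called higher and Msln lower, and 7 genes were not called; of all genes, 18.9% were called higher and 33.2% lower. All tumours were above all epithelial arrays for 1 of the 10 genes (Lcn2, against 21.3% of all genes), and all were below for 1 (Msln, against 37.0%). The median difference was 0.38 over the 10 genes and -0.17 over all genes. Centring every array on its own median moved each difference between tumours and the epithelial line up by 0.20, and of the genes then called, 52.2% were higher, against 36.2% as deposited; Msln, Muc13 and Lcn2 kept their calls (-1.06, 3.70 and 1.34). Single epithelial arrays moved the count: without array 2, 5 genes were called, Muc1 and Lypd8 having joined, and without array 3, 4 were, Pigr having joined. With tumour 2, the tumour with few hepatocyte markers, as the only tumour, Msln differed by -0.75 and Muc13 by 4.57. The calls were not kept in that fit, which has 1 tumour and so less power. The part of liver tissue in the calls was not tested.

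Tumours exceeded the fibroblastic line in 9 of the 10 genes, with Muc4 not called (27.3% of all genes were called higher and 33.5% lower). The 9 genes were apart from the fibroblastic arrays without overlap, against 26.2% of all genes. The differences ran from 1.19 for Lcn2 through 4.01 for Muc1, 5.34 for Msln, 5.84 for Muc13, 7.76 for Mal2, 8.23 for Pigr, 8.31 for Lgals4 and 8.49 for Lypd8 to 9.24 for Tspan8, with a median of 6.80 over the 10 genes and -0.07 over all genes. After centring, 57.1% of the genes called were higher, against 44.9% as deposited. The comparisons among tumours and lines share arrays, so their differences are not independent of each other.

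**Figure D2:**
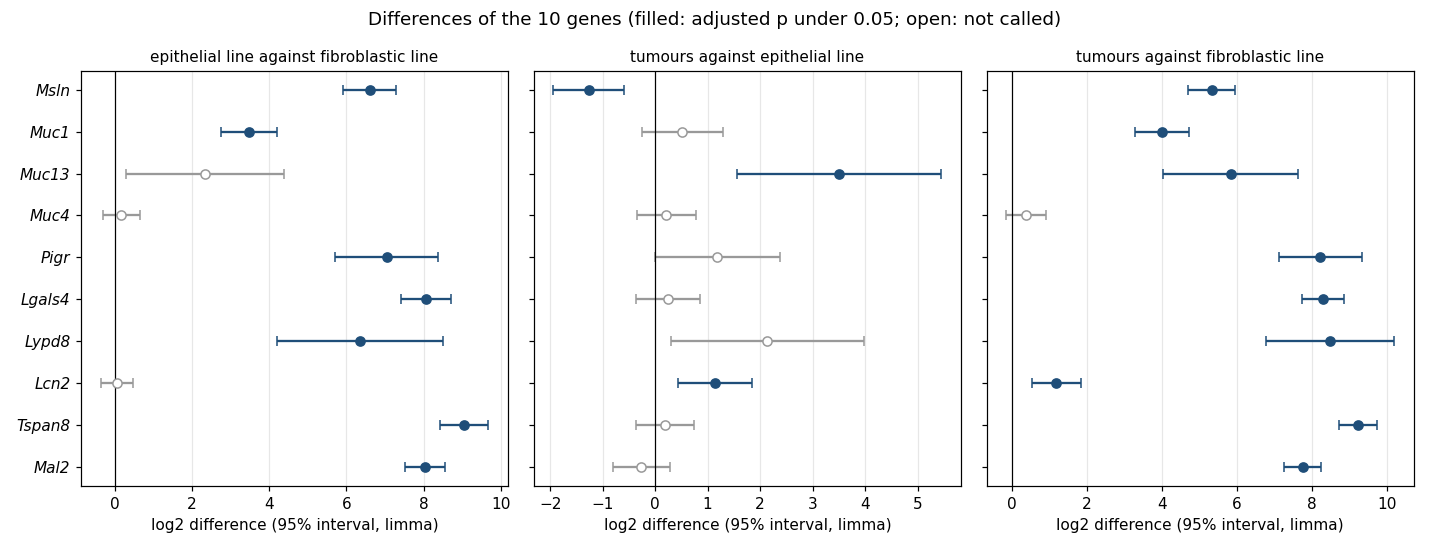
Log2 differences (horizontal axis) of the 10 genes between the epithelial and fibroblastic lines, between tumours and the epithelial line and between tumours and the fibroblastic line, as points with 95% intervals from the limma fit, filled where the gene was called and open where it was not. Muc4 and Lcn2 lie near 0 between the lines, and between tumours and the epithelial line Muc13 and Lcn2 lie above 0 and Msln below it.

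Within groups, some of the genes varied far more than most of the array. In the epithelial line the span from lowest to highest array was 4.76 for Lypd8, 4.18 for Muc13 and 2.74 for Pigr, wider than in 99.9%, 99.8% and 99.2% of genes, where the median gene spanned 0.44. Muc1 spanned 1.38 and Lgals4 1.23, whereas Lcn2 spanned 0.10, a narrower span than in most genes. Epithelial array 1 was the lowest of the 3 for 8 of the 10 genes, array 2 was the highest for 5 and array 3 for the other 5. Among the tumours, tumour 2 was highest for 7 genes, but lowest for Lcn2, and Muc13 spanned most, 2.38. The biliary marker mean of tumours 1 to 4 was 11.69, 12.19, 12.31 and 11.73 and the hepatocyte mean 12.59, 5.33, 11.03 and 12.77; their part in these spans was not tested. In the fibroblastic line, array 2 was lowest for 7 genes and array 4 highest for 6, and all spans stayed at or below 1.19, that of Msln.

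**Figure D3:**
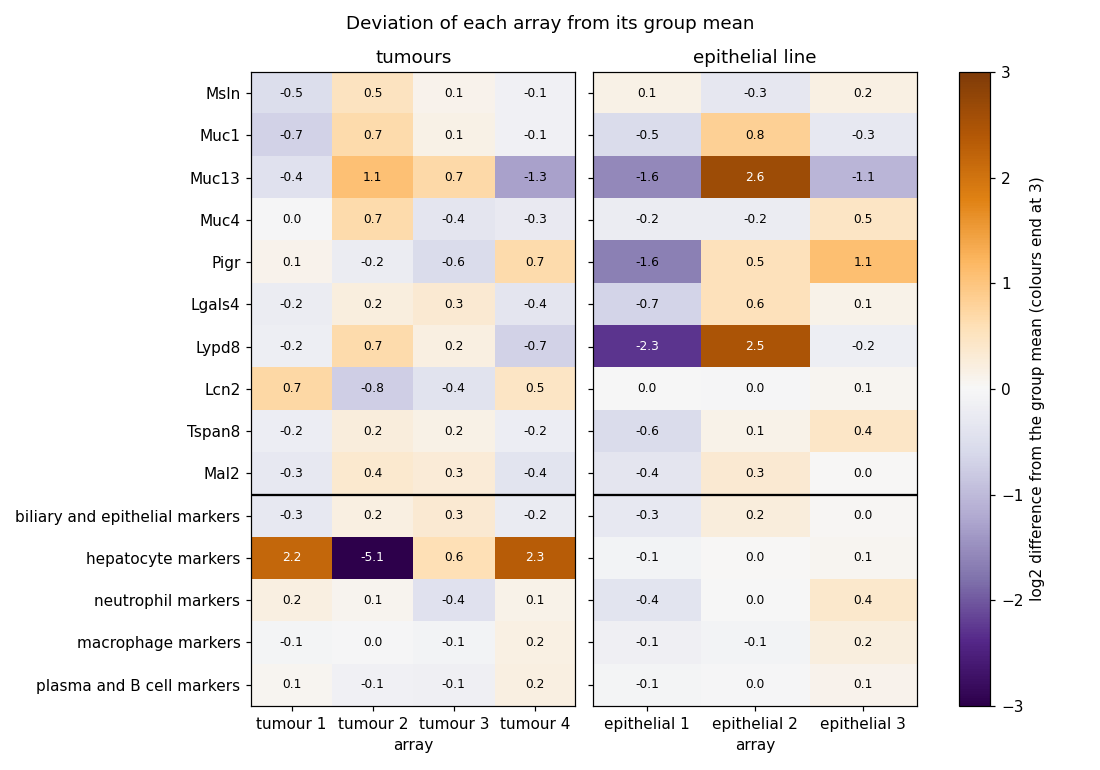
Deviation of each array from its group mean, in log2 units, in the tumours and the epithelial line, as a colour map with 1 column per array; the 10 genes are above the line and the means of 5 marker lists below it. Lypd8, Muc13 and Pigr deviate most among the epithelial arrays, and tumour 2 is highest for 7 of the 10 genes and lowest for Lcn2.

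In co-culture, Lcn2 and Muc4 stood above both lines. Lcn2 was the only gene of the 10 called in the array labelled epithelial co-culture against the epithelial line, where it was higher by 1.67 (SE 0.27, adjusted p = 0.00905); limma called 4.87% of all genes higher and 2.37% lower. The other 9 were not called, with differences from -0.65 (Lgals4) to 1.98 (Muc13, adjusted p = 0.460), a median of 0.88 over the 10 genes and -0.09 over all genes. Without epithelial array 2, Muc13 (3.29, adjusted p = 0.000653) and Muc1 (1.20, adjusted p = 0.0391) were called as well, and without epithelial array 3, Muc4 was (1.21, adjusted p = 0.0293). As each co-culture label has 1 array, the fit assumes that it varies like the lines grown alone.

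The array labelled fibroblastic co-culture differed from the fibroblastic line in 8 of the 10 genes, all higher, where 4.78% of all genes were called higher and 3.63% lower. The differences were 8.48 for Tspan8, 7.30 for Pigr, 7.03 for Mal2, 6.71 for Msln, 4.21 for Lgals4, 3.58 for Muc1, 2.08 for Lcn2 and 1.43 for Muc4, and those of Lypd8 (3.34, adjusted p = 0.209) and Muc13 (1.45, adjusted p = 0.602) were not called. The Muc4 call was lost without fibroblastic array 4 (adjusted p = 0.0570), and without epithelial array 2, which enters through the shared estimate of spread, Lypd8 (adjusted p = 0.0322) and Muc13 (adjusted p = 0.0140) were called, 10 genes in all. The array labelled fibroblastic co-culture also carried Krt19 at 13.21 where the fibroblastic line had a mean of 4.18, and the part of epithelial RNA in these differences was not tested. The contrast of the 2 labelled co-culture differences, each against its own line, was called for 6 genes, all lower for the epithelial label (3.76% of all genes were called lower and 4.66% higher). It equals the difference between the 2 co-culture arrays minus that between the lines (for Tspan8, 0.41 minus 9.05, and for Lgals4, 3.20 minus 8.06). Between the co-culture arrays, 1 array against 1, 0 of the 10 genes were called (of all genes, 0.00703% lower and 0.00% higher). For the 6 genes called, the difference between the lines is thus part of the contrast, which cannot by itself show a separate response to co-culture. The genes were Tspan8 (-8.64), Mal2 (-7.62), Msln (-7.22), Pigr (-5.85), Lgals4 (-4.86) and Muc1 (-2.80, adjusted p = 0.0383), and Muc1 lost its call when epithelial array 3 or any 1 of the fibroblastic arrays was left out (adjusted p between 0.0528 and 0.0742).

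The co-culture arrays were next set against both lines, a choice made after seeing the mixed markers. Averaged and set against the epithelial line, they were higher in Lcn2 by 1.85 (SE 0.21, adjusted p = 0.00101) and in Muc4 by 1.12 (SE 0.25, adjusted p = 0.0207), and lower in Lgals4, by -2.25 (SE 0.34, adjusted p = 0.00390); 7.97% of all genes were called higher and 7.36% lower. The Muc4 call was lost without epithelial array 1 (adjusted p = 0.0589) or 2 (adjusted p = 0.0599). Against the fibroblastic line they were higher in 9 of the 10 genes (8.47% of all genes were called higher and 8.85% lower), with Muc13 not called (2.88, adjusted p = 0.0911; 0.000155 without epithelial array 2). Lcn2 and Muc4 were the 2 genes of the 10 that exceeded every array of both lines in both co-culture arrays, as did 5.80% of all genes. Lcn2 did so by at least 1, by 1.32 and 1.68, as did 0.710% of all genes, and Muc4 by 0.51 and 0.80. Pigr exceeded both lines in the array labelled epithelial co-culture, by 0.35. These comparisons reuse the arrays of both lines and are not independent. The neutrophil marker mean was 6.41 and 5.81 in the co-culture arrays. It was led by S100a9 at 13.42 and 11.50, which the epithelial line also carried at 7.36, 9.80 and 10.53. Averaged and set against the epithelial line, the co-culture arrays were higher by 3.23 in S100a9 and 1.45 in S100a8. Camp, Mmp8, Csf3r and Cxcr2 differed by 0.01, 0.28, 0.02 and 0.33 and were not called. The part of these markers was not tested.

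Lgals4, Lypd8, Mal2 and Tspan8 stood between the lines in the array labelled fibroblastic co-culture, as did the epithelial markers Krt19, Epcam and Cdh1. Of the 10 genes, Lgals4 and Lypd8 were furthest below their epithelial mean in that array. Differences from the epithelial mean of log2 levels were turned into percentages, which are percentages of a geometric mean. By this measure Lgals4 in that array was 6.9% and Lypd8 12.4%, while Krt19 was 55.0%, Mal2 50.1%, Muc13 53.9%, Tspan8 67.2%, Msln 107.6% and Pigr 119.0%. In the array labelled epithelial co-culture Lgals4 was 63.6% and Lypd8 202.0%, though Lypd8 at 12.30 lay within its epithelial range of 8.99 to 13.75. For Lypd8, Muc13 and Pigr, whose epithelial arrays varied widely, the percentages depend on this choice of mean. Against the epithelial line, the array labelled fibroblastic co-culture was lower in Lgals4 by -3.85 (SE 0.43, adjusted p = 0.00112), and higher in Lcn2 by 2.03 (adjusted p = 0.00305) and Muc4 by 1.26 (adjusted p = 0.0488); 5.44% of all genes were called higher and 2.20% lower. Lypd8, at 8.27, lay below all of its widely spread epithelial arrays and differed from their mean by -3.02, which was not called. Without epithelial array 1 the Lypd8 difference was -4.16. The Muc4 call was lost without epithelial array 1 or 2 or any 1 fibroblastic array (adjusted p between 0.0620 and 0.104), and with arrays centred on their medians (adjusted p = 0.0678). Between the 2 co-culture arrays themselves, 0 of the 10 genes were called. The widest differences were 4.03 for Lypd8 (SE 1.72), 3.20 for Lgals4 (SE 0.52) and 2.87 for Muc13 (SE 1.64).

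**Figure D4:**
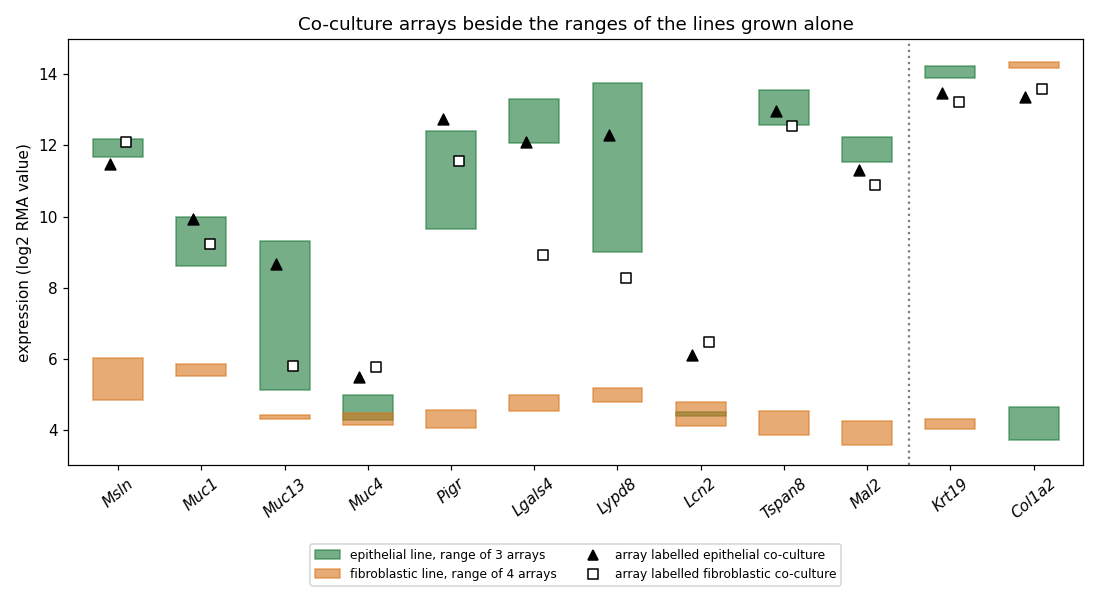
Log2 expression (vertical axis) of the 10 genes and of the line markers Krt19 and Col1a2 in the 2 co-culture arrays (triangle and square), beside shaded ranges of the epithelial and fibroblastic lines grown alone. Lcn2 and Muc4 lie above both ranges on both co-culture arrays. In the array labelled fibroblastic co-culture, Lgals4 and Lypd8 lie between the ranges, at 8.91 and 8.27, as do Mal2, Tspan8 and Krt19, at 10.89, 12.55 and 13.21.

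The order of the group means differed by gene. Lgals4, Lypd8, Tspan8 and Muc13 were highest in tumours, Msln, Muc4 and Lcn2 in the array labelled fibroblastic co-culture, Muc1 and Pigr in the array labelled epithelial co-culture, and Mal2, on its brighter probe set, in the epithelial line, with the fibroblastic line lowest for all 10. Most neighbours near the top overlapped, such as tumours and the epithelial line for Lgals4, Tspan8 and the brighter Mal2 probe set. On the dimmer Mal2 probe set all tumours were above all epithelial arrays. The genes whose levels most resembled each member over the 13 arrays, by Pearson correlation and as a description, differed by member. Tspan8 was nearest to Epcam (r = 0.999), Ocln and Mal2 (both 0.997), Mal2 to Krt8 (0.999), F11r and S100a14 (both 0.998), and Msln to Cdh1 (0.993), Card10 (0.992) and Adgrg1 (0.991). Muc1 was nearest to Serpinb1a, Fam110c (both 0.989) and Plet1 (0.987), Pigr to Tspan8 (0.982), Irf8 and Plac8 (both 0.981), and Lgals4 to Ctla2a (0.991), Prr15l (0.988) and Sult1b1 (0.987). Lypd8 was nearest to Ms4a8 (0.991), Trim30d and Gcnt3 (both 0.977), and Muc13 to Smpd3 (0.969), Fut2 (0.966) and Clca4 (0.961). Gcnt3 and Fut2 make sugar chains of mucins. Lcn2 was nearest to Fxyd6 (0.964), Gsap (0.950) and Angptl8 (0.938), and Muc4 to Armh4 (0.902), Nkain1 (0.863) and Wfdc18 (0.852).

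The counts of relatives of the 10 genes stand beside the shares of all genes, 20.9% higher and 16.6% lower in the epithelial than in the fibroblastic line, 18.9% higher and 33.2% lower in tumours than in the epithelial line, and 27.3% higher and 33.5% lower in tumours than in the fibroblastic line. Of 10 other mucins and mucin-like surface proteins measured (19 listed), which include Epcam, also a biliary marker here, 4 were called higher in the epithelial line and 1 lower, 4 higher and 1 lower in tumours than in the epithelial line, and 8 higher and 1 lower in tumours than in the fibroblastic line. Cd24 (8.27) and Epcam (8.44) led in the epithelial line and Mcam (-3.93) in the fibroblastic line, while Muc3 (2.63) and the endothelial sialomucin Emcn (3.21) rose in tumours against the epithelial line. Muc5b, a secreted gel-forming mucin, was 1.52 higher in the epithelial than in the fibroblastic line (adjusted p = 0.0203) and Muc2 differed by 1.48 (adjusted p = 0.0522). The median of the list was 0.92 between the lines and 0.71 between tumours and the epithelial line.

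Of 22 secretory granule and goblet cell products, 12 were higher and 2 lower in the epithelial line, and 10 were higher and 2 lower in tumours than in the epithelial line. Agr2, a disulfide isomerase needed to fold mucins, was 5.19 higher in the epithelial line and the transcription factor Elf3 5.38 higher, while osteopontin, Spp1, differed by -7.04. In tumours against the epithelial line, Spp1 (7.49) and the antibacterial lectin Reg3g (6.36) rose and the transcription factor Foxa2 changed by -1.62. Among 26 enzymes of mucin-type O-glycosylation, 6 were higher and 4 lower in the epithelial line, near the shares of all genes, with Gcnt3 (3.02) and B3gnt5 (2.12) on the high side and the sialyltransferases St3gal2 (-2.36) and St3gal1 (-2.06) on the low side. In tumours against the epithelial line 5 enzymes were higher and 2 lower (10 and 1 with centred arrays), led by St3gal6 (3.27).

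Of 9 galectins measured besides Lgals4, 2 were higher and 3 lower in the epithelial line. Lgals3 was higher by 1.99 and Lgals1, a galectin of mesenchymal cells, differed by -7.83. Tumours were higher than the epithelial line in 5 galectins, among them Lgals1 (5.62) and Lgals2 (5.60), and lower in 2. Of 25 tetraspanins, 6 were higher in the epithelial line, led by Tspan1 (6.57), and 9 lower, led by Cd81 (-8.02); in tumours against the epithelial line 7 were higher, among them the leukocyte protein Cd53 (6.43), and 5 lower, which became 11 and 1 with centred arrays. Of 14 MAL and MARVEL proteins, 5 were higher in the epithelial line, with Ocln, a tight junction protein, at 6.78 and Mal at 5.56, and 3 were lower; Mal was -4.08 in tumours against the epithelial line, where 2 rose and 3 fell (4 and 2 with centred arrays).

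Of 11 Ly6 and uPAR proteins measured besides Lypd8, 6 were higher in the epithelial than in the fibroblastic line and 1 lower, with Lypd2 at 5.11 and Psca at 4.66, and 6 were lower and 1 higher in tumours than in the epithelial line (4 and 1 with centred arrays). Psca differed there by -3.13 and Lypd2 by -2.23, and the 1 higher gene, Ly6e, by 4.90, the widest difference of the list. Of 14 lipocalins and genes of siderophore or iron handling, 3 were higher and 3 lower in the epithelial line, near the shares of all genes, and 8 were higher and 0 lower in tumours than in the epithelial line. Orm1 (6.14) and Rbp4 (5.34), both liver secretory products, led in tumours, where the hepatocyte mean ranged from 5.33 to 12.77; its part was not tested. Slc22a17, a receptor for lipocalin-2, differed by -4.45 between the epithelial and fibroblastic lines, and Bdh2, an enzyme linked to the mammalian siderophore, by -4.40. Of 26 genes of apical polarity and transport, 12 were higher and 3 lower in the epithelial line, led by Pard6b (5.60) and Rab25 (5.13), and 3 were higher and 11 lower in tumours than in the epithelial line (6 and 7 with centred arrays).

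The array labelled epithelial co-culture, where 4.87% of all genes were called higher and 2.37% lower, differed from the epithelial line in 0 of the 10 mucins and mucin-like proteins, and in 3 of the 22 secretory products, all higher, with Reg3b at 5.88 and Spp1 at 6.81. In the same comparison 3 of 26 O-glycosylation enzymes were higher, among them St3gal6 (1.66), 2 of 9 galectins, led by Lgals1 (7.77), and 6 of 25 tetraspanins, led by Cd81 (8.00). Lgals1, Cd81 and Spp1 were among the genes higher in the fibroblastic than in the epithelial line grown alone. Slc22a17, likewise higher in the fibroblastic than in the epithelial line grown alone, was 3.38 higher and the only called gene of its 14. The part of fibroblastic RNA in these differences was not tested. Neutrophil-associated S100a8 was 2.56 higher and S100a9 4.19 higher, 2 of 6 markers measured, beside the Lcn2 difference of 1.67.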

How the data were processed

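Total RNA of 13 samples was measured on Affymetrix rat arrays. The authors deposited log2 expression values per probe set, made with RMA per the submitters' processing notes; the software version was not given in the sources used here. Values ran from 2.94 to 14.69. Of 31099 probe sets, 57 were controls, 20826 named 1 gene, 436 several and 9780 none in the platform annotation; only probe sets with 1 gene were used, and symbols were updated by Entrez number for 20758 and by accession for 2, with 66 kept as listed. Of a gene's probe sets, the one with the highest mean over the 13 arrays stood for it, which left 14217 genes, 4525 of them with several probe sets.

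Group means were fitted with limma 3.58.1 in R 4.3.3, with moderated, two-sided tests, and p-values were adjusted by Benjamini-Hochberg across the 14217 genes; calls were made at an adjusted p under 0.05. The first fit held the 9 arrays of the lines and co-cultures, the second the 11 arrays of tumours and lines, so each shares its estimate of spread. The method was also run on simulated data with independent noise for each gene. That setting is simpler than these arrays, and no conclusion is drawn from it here. Array data carry no read depth, and the number of arrays limits the precision. The labels do not say whether replicate numbers pair arrays, and the main fits did not pair them. Deviations of same-numbered arrays correlated between -0.148 and 0.143, and those of differently numbered arrays between -0.194 and 0.196. With so few arrays this showed no pairing but cannot exclude it. Besides the 10 genes, the text names, for each list and comparison, genes among the 2 called with the widest positive and the 2 with the widest negative difference, the 3 genes most correlated with each member, and list genes of defining role. Alternatives covered the arrays in the fit, scaling, a filter on low values, the probe set, moderation, a fold limit, the replicate block, tumour 2 alone, fibroblastic arrays 2 and 4, and each array left out in turn. The genes, lists and tests were chosen with earlier results of these data known, and comparisons of the co-culture arrays with the other line, with both averaged or with each other were added after seeing the data. Correlations and promoter motifs were computed with Python 3.11.15, pandas 2.3.3 and numpy 2.4.6, and figures were drawn with matplotlib 3.10.9.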

Additional observations from a re-analysis of the deposited data

Results flagged for a closer look

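Limma called the contrast of the 2 labelled co-culture differences, each array against its own line grown alone, for 6 of the 10 genes. The epithelial minus fibroblastic value on the log2 scale was -8.64 for Tspan8, -7.62 for Mal2, -7.22 for Msln, -5.85 for Pigr, -4.86 for Lgals4 and -2.80 for Muc1. The contrast equals the difference between the 2 co-culture arrays minus that between the lines (for Lgals4, 3.20 minus 8.06). The line difference is thus part of the contrast, which cannot by itself show a separate response to co-culture. A comparison of 1 co-culture array against 1 cannot exclude such a response either. Each of the 6 genes was high in the epithelial line and low in the fibroblastic line when grown alone, and both co-culture arrays carried markers of both lines (Krt19 at 13.49 and 13.21, Col1a2 at 13.37 and 13.60). The tumour and fibroblastic groups of 4 arrays, 20 sets of values over the 10 genes, held no array beyond Dixon's 95% limit.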

How the results depend on the processing

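Over 49 calls of the 10 genes in all comparisons, alternatives gave 759 values, of which 0 changed sign and 23 lost the call. Of 1520 values for called and uncalled genes together, 1458 kept direction and side of the threshold, 19 gained a call and 20 changed sign. Between tumours and the epithelial line, 3 genes were called, and 3 to 5 with 1 array left out. With tumour 2 as the only tumour the calls were not kept, in a fit with less power. Against the epithelial line, the array labelled epithelial co-culture had 1 called gene; leaving out the lowest 30% of genes by mean, which removes Muc4 and Lcn2, gave 0, and leaving out 1 array gave 1 to 3. With that filter, both co-culture arrays together, and the array labelled fibroblastic co-culture, each had 1 called gene against the epithelial line, where 3 were called otherwise (2 to 4 and 2 to 3 with 1 array left out). Mal2 in tumours against the epithelial line turned from -0.27 to 0.96 with the mean of its probe sets (adjusted p = 0.0172), 2.20 with the other probe set and 0.10 with tumour 2 alone, and in the array labelled epithelial co-culture to 0.10 with the other probe set. The cause was not tested. Leaving out 1 array turned further values that were not called: between the lines, Muc4 ranged over -0.065 to 0.29 and Lcn2 over -0.045 to 0.18; between tumours and the epithelial line, Muc4 over -0.010 to 0.45, Lgals4 over -0.093 to 0.52 and Tspan8 over -0.089 to 0.40; in the array labelled epithelial co-culture, Lypd8 over -0.13 to 2.25 and Tspan8 over -0.44 to 0.053; in the difference of responses, Muc13 over -0.25 to 1.84; in both co-culture arrays against the epithelial line, Muc13 over -0.23 to 1.86 and Lypd8 over -2.15 to 0.23; and in the array labelled fibroblastic co-culture against the epithelial line, Muc1 over -0.18 to 0.51, Pigr over -0.57 to 0.80, Msln over -0.051 to 0.19 and Muc13 over -1.67 to 0.42.

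With the replicate number as a block, 7, 4 and 9 genes were called between the lines, in tumours against the epithelial line and in tumours against the fibroblastic line, where 7, 3 and 9 were called without it; Lypd8 joined in the second (2.21, adjusted p = 0.0473). The co-culture arrays carry no replicate number, so no block was fitted for them. Over all genes, a limit of 2-fold cut the calls from 5324 to 3310 between the lines, from 7407 to 3465 in tumours against the epithelial line and from 8652 to 4343 in tumours against the fibroblastic line, and tumour 2 alone gave 1958 and 3912 in the last 2. With all 13 arrays in 1 fit, 1743 genes were called for the array labelled epithelial co-culture against the epithelial line (1029 otherwise) and 1651 for the array labelled fibroblastic co-culture against it (1086 otherwise). Muc4 and Lcn2 lie near the low end of the array's signal, which limits what can be said of their differences.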
